A study of Mus musculus with 36 samples.

Results

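Colon tumors of Il17rc knockout mice (KO) were compared with the injured colon of KO mice at day 15 of the same carcinogen and colitis protocol. The members are the 6 arrays whose titles name them as KO tumor and the 4 arrays titled as KO colon at day 15, so 10 of the 36 arrays of the series. All 17097 genes with a usable probe set were read, each through its brightest probe set. The labels give an age of 6 to 8 weeks for every group, whatever the day it was taken. The treated animals received azoxymethane (AOM), a carcinogen that acts on the colon. Dextran sulfate sodium (DSS), which injures the colon lining, followed in 3 cycles, each with 5 days of 3% DSS in the drinking water and then 14 days of normal water. The first KO group was taken at day 15 and the tumors at day 63. The labels give the 3-cycle protocol for both and do not say from when the days were counted or how many cycles had been given by day 15. Wild-type (WT) mice under the same protocol, with 4 day 15 arrays and 6 tumor arrays, were set beside them, and 4 untreated KO arrays gave the level without treatment. Both KO groups share the loss of Il17rc and received AOM and DSS. If days were counted from the start of treatment, the 3 cycles could not have been complete by day 15. The groups differ in tissue (tumor against colon) and day, and then also in the amount of DSS. If the stated age is that at the start, they also differ in age at sampling. These differences cannot be told apart. The labels give neither the strain, the part of the gene that was deleted nor the number of tumors per sample, and they do not say that arrays are separate animals, so the p-values cover only the variation among these arrays, which may be technical. Whole tissue was minced and lysed, so fewer cells of a type and less RNA per cell cannot be told apart.

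Il17rc pairs with Il17ra to form the receptor that binds IL-17A and IL-17F, and the adaptor Act1 (gene Traf3ip2) carries the signal on to inflammatory target genes in epithelial and stromal cells. In the colon, AOM causes DNA damage and repeated DSS colitis drives regeneration of the epithelium, and the tumors that arise in mice often carry activating lesions of the Wnt/beta-catenin pathway. That pathway normally acts in the crypt base, where Wnt ligands keep stem cells dividing through TCF/LEF transcription factors and where its own targets include secreted and membrane inhibitors.

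The Il17rc probe set stayed at background in every array compared. Its deposited intensity was 13, 9, 12 and 9 in the 4 KO day 15 arrays and 8 to 10 in the 6 KO tumors, against a mean of 252 ± 101 (SD, n = 4) in WT at day 15. Epcam, a pan-epithelial surface protein, was bright in all 10 arrays (5268 to 7286). Cdx2, the transcription factor of intestinal identity, read 62, 63, 84 and 44 at day 15, and 44 and 37 in tumor replicates 1 and 2 but 143 to 253 in tumor replicates 3 to 6.

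Several arrays stood apart from their group before any test. Tumor replicates 3, 4, 5 and 6 carried transcripts of the exocrine pancreas, with Cpa1, a pancreatic carboxypeptidase, at 3479, 459, 4695 and 1037, whereas it read 8 in tumor replicates 1 and 2 and 8 to 11 at day 15. Outside the KO tumors, only WT tumor replicates 2 and 6 had Cpa1 above 100 (660 and 1768), so 6 of the 36 arrays passed that level. Tumor replicates 1 and 2 instead carried squamous keratins, with Krt5 at 96 and 436 against 16 to 21 in the other 8 arrays. Tumor replicate 2 was also low in muscle and nerve transcripts, with the smooth muscle list summing to 4754 there and 13324 to 25604 in the other tumors. Day 15 replicate 4 had the strongest leukocyte signal, with a summed neutrophil list of 27385 against 3651 to 5139 in the other 3 day 15 arrays. Among markers of tissues that a colon sample could carry along, the skeletal muscle gene Ckm (12 to 33) lay near background in all 10 arrays. The fat gene Adipoq ranged from 11 to 137 with overlap between the groups. Correlations over all genes on the log2 scale were 0.959 to 0.994 among tumors, 0.939 to 0.991 among day 15 arrays and 0.911 to 0.979 between the groups.

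Of 17097 genes, 2497 (14.6%) differed between KO tumors and KO day 15 colon at a limma adjusted p below 0.05, and 4953 had an unadjusted p below 0.05. Of the 2497, 1463 (8.56% of all genes) were higher in tumors and 1034 (6.05%) were lower. Where a list below has only 1 or 2 calls in a direction, the count is no result about that list beside these shares. Without regard to the test, the normalized values of the 2 groups did not overlap for 1179 genes (6.9%) in the higher and 458 (2.68%) in the lower direction. A log2 difference above 1 was reached by 290 of the higher and 257 of the lower genes, one above 2 by 100 and 25, and one above 4 by 29 and 0. The split between higher and lower moved with the scaling, since 58.6% of the called genes were higher after quantile normalization and 44.1% without normalization. Without day 15 replicate 1 the count fell to 1448, and without the arrays with Cpa1 above 100, which leaves only tumor replicates 1 and 2, it was 1082. Differences below are log2 differences, tumor minus day 15, with the standard error (SE) of the limma fit, and levels are deposited intensities on a linear scale. The median log2 difference over all genes was 0.02.

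**Figure D1:**
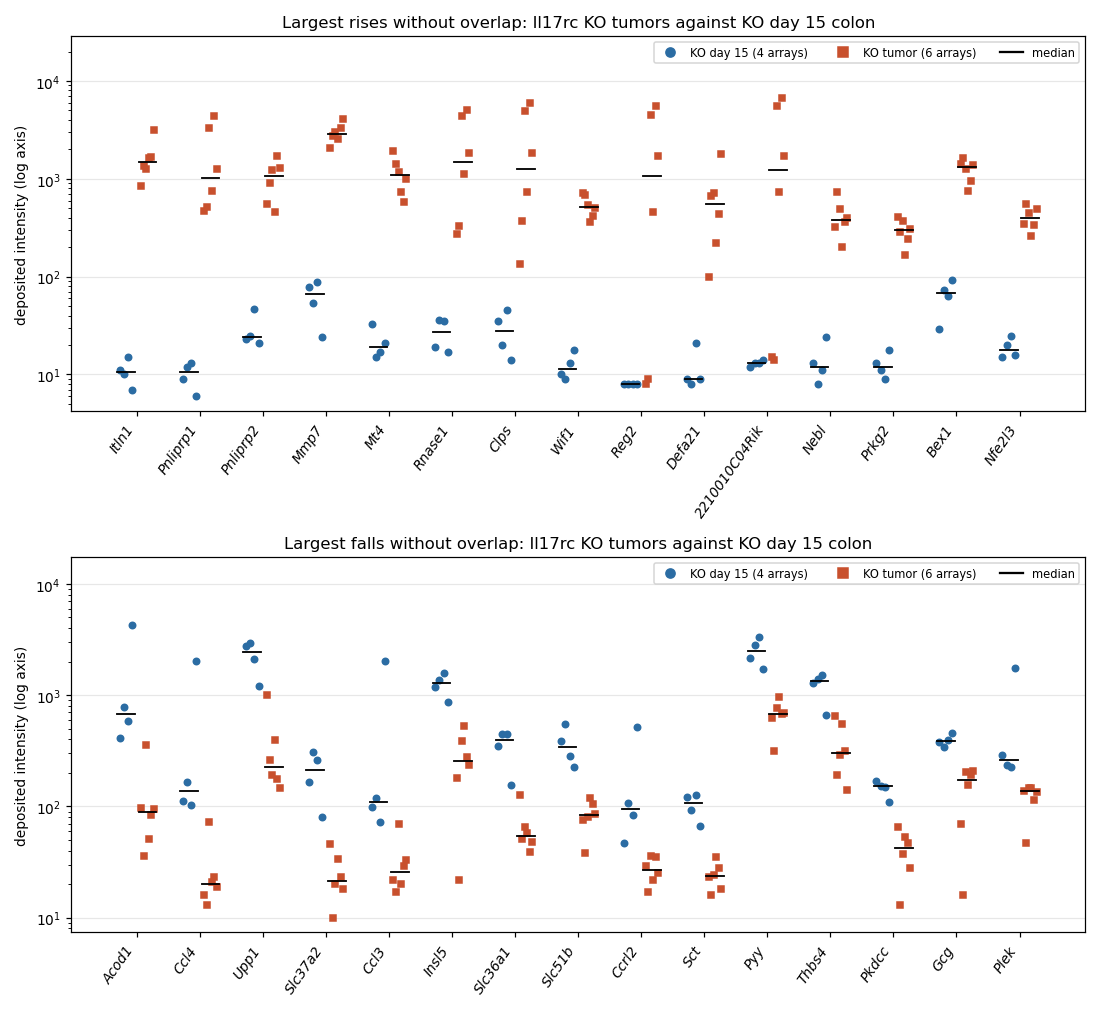
Deposited intensity on a log axis for the 15 largest rises (top) and the 15 largest falls (bottom) among called genes whose KO groups did not overlap in normalized values, with 1 point per array for KO day 15 (blue circles, 4 arrays) and KO tumors (red squares, 6 arrays) and a black bar at each median. Itln1 ran from 7 to 15 at day 15 and from 851 to 3153 in tumors, while Reg2 and 2210010C04Rik split the tumors into 4 high arrays and 2 at the day 15 level.

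The clearest change in the KO tumors was a rise of Wnt/beta-catenin targets. Of 20 measured targets, 18 rose and 0 fell, with a median log2 difference of 2.73. Leaving out 1 array at a time gave 17 or 18, and for all 18 genes that rose every tumor lay above every day 15 array. The promoters of 3 that rose are shown first because they hold the letters ATCAAAG, the core recognized by TCF/LEF factors, which stand in capitals as ATCAAAG or its reverse complement CTTTGAT. Each runs 5′ to 3′ on the gene's own strand from 250 bases before to 50 after a RefSeq start site in GRCm38.p6: Mmp7 at chr9:7691840-7692139 on the plus strand, Sp5 at chr2:70474673-70474972 on the plus strand and Tnfrsf19 at chr14:61037938-61038237 on the minus strand.
Mmp7: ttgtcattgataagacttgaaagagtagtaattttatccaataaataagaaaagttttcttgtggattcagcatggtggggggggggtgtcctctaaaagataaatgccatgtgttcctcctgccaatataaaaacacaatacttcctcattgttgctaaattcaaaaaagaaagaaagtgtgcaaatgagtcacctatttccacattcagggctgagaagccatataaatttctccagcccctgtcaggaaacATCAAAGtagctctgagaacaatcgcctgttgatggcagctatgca
Sp5: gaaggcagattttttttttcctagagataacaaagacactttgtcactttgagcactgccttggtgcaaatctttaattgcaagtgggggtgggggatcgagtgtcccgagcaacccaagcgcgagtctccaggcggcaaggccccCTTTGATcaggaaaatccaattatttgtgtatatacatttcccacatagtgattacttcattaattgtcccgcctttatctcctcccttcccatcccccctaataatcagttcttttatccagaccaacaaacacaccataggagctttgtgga
Tnfrsf19: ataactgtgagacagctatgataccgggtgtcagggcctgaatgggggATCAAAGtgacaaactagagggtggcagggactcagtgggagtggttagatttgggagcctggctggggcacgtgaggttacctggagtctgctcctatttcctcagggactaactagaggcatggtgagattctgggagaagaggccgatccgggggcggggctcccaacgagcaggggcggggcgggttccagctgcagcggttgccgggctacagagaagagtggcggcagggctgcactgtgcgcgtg
Of the 20 measured targets, 12 had a RefSeq promoter entry and 3 of these 12 held the motif on either strand in at least 1 window, against 4.29% of all 27025 genes with an entry. Counted by window of 300 bases, 4 of the 19 windows of these targets held it, against 3.73% of all 32851. A match is only a run of letters, and no binding was measured. The match lay 104 bases before the start site in Sp5, 202 bases before it in Tnfrsf19 and at base 5 after it in Mmp7.

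Mmp7, a matrix metalloproteinase that also activates Paneth cell defensins, read 78, 54, 89 and 24 at day 15 and had a lowest, median and highest tumor value of 2071, 2869.5 and 4066. Its log2 difference was 5.83 (SE 0.41, limma adjusted p = 1.44e-11). Every tumor exceeded every day 15 array, by a wide margin. Sp5, a transcription factor directly induced by Wnt, read 14, 14, 14 and 13 at day 15 and 78, 137 and 231 (lowest, median, highest) in tumors, a log2 difference of 3.25 (SE 0.31, adjusted p = 8.35e-09). Tnfrsf19, a TNF receptor family member of crypt base cells, read 18, 19, 29 and 30 at day 15 and 107, 133 and 191 in tumors, a log2 difference of 2.60 (SE 0.40, adjusted p = 3.33e-05). Its 2 dimmer probe sets, near background in both groups, gave log2 differences of 0.53 (adjusted p = 0.0121) and -0.01 (adjusted p = 0.932).

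Several of these targets encode inhibitors of the pathway. Wif1, a secreted protein that binds Wnt ligands, read 10, 9, 13 and 18 at day 15 and 366, 521 and 715 in tumors (log2 difference 5.36, SE 0.43, adjusted p = 2.56e-10). Notum, a secreted enzyme that inactivates Wnt by removing its lipid, read 11, 11, 11 and 10 at day 15 and 117, 205 and 339 in tumors (log2 difference 4.10, SE 0.39, adjusted p = 8.35e-09). At day 15 Wif1, Notum and Sp5 lay at background, as they did in untreated KO colon. Axin2, a scaffold of the beta-catenin destruction complex, read 32, 34, 36 and 24 at day 15 and 102, 241 and 342 in tumors (log2 difference 2.94, SE 0.40, adjusted p = 6.34e-06). Prox1, a transcription factor switched on in Wnt-driven colon tumors, read 12, 9, 12 and 12 at day 15 and 122, 167 and 312 in tumors (log2 difference 3.94, SE 0.37, adjusted p = 9.08e-09). Tumor replicate 4 was the lowest tumor for Wif1, Notum, Axin2, Prox1 and Sp5, yet lay above all day 15 arrays for each. The targets that did not pass, named after their values were seen, were Lef1, at 9 to 18 in all 10 arrays (adjusted p = 0.694), and the adhesion receptor Cd44, at 470, 320, 393 and 2179 at day 15 and 683 to 928 in tumors (adjusted p = 0.637).

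Of 11 measured stem cell genes of the crypt base, 7 rose and 0 fell, with a median log2 difference of 1.73. The Wnt target list also holds 5 of the 11, Lgr5, Ascl2, Axin2, Sox9 and Tnfrsf19, and these 5 all rose. Of the 6 that it does not hold, 2 rose, Smoc2 and Prom1. Lgr5, the R-spondin receptor that marks crypt base stem cells, read 22, 36, 31 and 15 at day 15 and 229, 354 and 571 in tumors (log2 difference 3.89, SE 0.40, adjusted p = 3.58e-08). Ascl2, the transcription factor that sets stem cell fate, read 37, 52, 49 and 13 at day 15 and 173, 231 and 360 in tumors (log2 difference 2.87, SE 0.39, adjusted p = 6.6e-06). Smoc2, a matricellular protein of the same cells, read 155, 207, 213 and 87 at day 15 and 456, 629.5 and 1178 in tumors (log2 difference 2.23, SE 0.36, adjusted p = 8.04e-05). For all 3 genes every tumor lay above every day 15 array, and day 15 replicate 4 was the lowest array.

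Among 23 measured Wnt, R-spondin and BMP signals of the niche, 4 rose and 1 fell, with a median log2 difference of 0.05. Dkk2, a secreted Wnt modulator, rose from 9 or 10 in the day 15 arrays to 58, 112.5 and 190 in tumors (log2 difference 3.46, SE 0.35, adjusted p = 2.98e-08). The Wnt ligand Wnt10a rose by a log2 difference of 1.75 and the ligand Wnt6 by 1.22 (adjusted p = 0.00226 and 0.0041), both from near background at day 15. Id3, a target of BMP signalling, rose by a log2 difference of 1.12 (adjusted p = 0.00198). Bmp2, a ligand that promotes differentiation in the upper crypt, read 498, 571, 599 and 481 at day 15 and 162, 189 and 315 in tumors (log2 difference -1.36, SE 0.25, adjusted p = 0.000321). The tumors lay below the day 15 arrays throughout.

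Few regeneration and growth factor genes were called. Krt7, a keratin of the regenerative state, was the 1 of 9 measured regenerative genes to rise, from 1591, 1307, 1155 and 2112 to 2747, 2994.5 and 4420 (log2 difference 1.15, SE 0.22, adjusted p = 0.000498). Clu, a marker of revival stem cells, read 3328, 513, 1454 and 3179 at day 15 and 2716 to 3835 in tumors and did not pass (log2 difference 0.97, adjusted p = 0.223). Btc, a ligand of the EGF receptor, was the 1 of 10 EGF family genes to rise (log2 difference 1.29, SE 0.28, adjusted p = 0.00243).

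Of 7 measured Paneth cell and lipase genes, 5 rose and 0 fell, with a median log2 difference of 5.12, and without the arrays with Cpa1 above 100 it was 4 of 7. Itln1, a lectin of goblet and Paneth cells that binds microbial sugars, read 11, 10, 15 and 7 at day 15 and 851, 1481 and 3153 in tumors (log2 difference 7.06, SE 0.46, adjusted p = 2.23e-12). Pnliprp1 and Pnliprp2, relatives of pancreatic lipase, rose by 6.81 (SE 0.49) and 5.12 (SE 0.33), with tumor values of 468 to 4402 and 463 to 1710 against 6 to 13 and 21 to 47 at day 15. Defa21, an alpha-defensin whose probe set may bind several near-identical family members, read 9, 8, 21 and 9 at day 15 and 99, 551.5 and 1813 in tumors (log2 difference 5.23, SE 0.80, adjusted p = 3.3e-05). Lyz1, Paneth cell lysozyme, rose less, from 18, 20, 19 and 13 to 21, 28 and 56 (log2 difference 0.80, SE 0.20, adjusted p = 0.00707). In tumor replicates 1 and 2 alone, where Cpa1 lay at the day 15 level, Itln1, Pnliprp1, Pnliprp2 and Defa21 still differed from day 15 by 6.54, 5.50, 4.72 and 4.36.

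The pancreatic acinar list rose in 9 of 10 measured members, with a median log2 difference of 5.23 and 0 falls. The median over the 10 members was 0.09 and 1 of 10 rose when the arrays with Cpa1 above 100 were left out. The list summed to 353 to 1693 at day 15, to 1055 and 1053 in tumor replicates 1 and 2 and to 10882 to 58393 in tumor replicates 3 to 6. Without those arrays, Cpa1 itself had a log2 difference of -0.20 in place of 4.82, the trypsinogen Prss2 0.32 in place of 5.15, the amylase Amy2a5 0.30 in place of 5.69, the elastase Cela2a 0.15 in place of 5.31 and the chymotrypsinogen Ctrb1 0.11 in place of 5.51. The trypsin-like gene 2210010C04Rik followed the same 4 arrays (12, 13, 13 and 14 at day 15; 15 and 14 in tumor replicates 1 and 2; 726 to 6729 in replicates 3 to 6). Clps, the lipase cofactor colipase, differed from these genes. It read 35, 20, 46 and 14 at day 15, 135 and 369 in tumor replicates 1 and 2 and 728 to 5945 in replicates 3 to 6, so the log2 difference was 5.43 (SE 0.71) with and 3.06 without the Cpa1 arrays (adjusted p = 0.0018). Rnase1, a secreted ribonuclease, behaved likewise, at 270 and 328 in tumor replicates 1 and 2 and 5.65 with and 3.54 without those arrays (adjusted p = 0.0252).

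Reg family lectins are secreted by epithelium on injury and also by the exocrine pancreas. Of 7 measured members, 5 rose with a median log2 difference of 2.44. By contrast, 0 of 7 were called without the arrays with Cpa1 above 100, and leaving out 1 array at a time gave 3 (without tumor replicate 3, 5 or 6 or day 15 replicate 1 or 3) to 6 (without tumor replicate 2). Reg1 read 9 or 10 at day 15, 8 and 7 in tumor replicates 1 and 2 and 3091, 267, 4044 and 842 in tumor replicates 3, 4, 5 and 6, and Reg2 read 8 in all day 15 arrays, 8 and 9 in tumor replicates 1 and 2 and 457 to 5542 in the others. Reg3a and Reg3d were high in tumor replicates 3, 5 and 6 (83 to 727 and 72 to 558) but read 13 and 12 in tumor replicate 4. Their log2 differences of 2.38 and 2.44 became -0.07 and -0.11 without the arrays with Cpa1 above 100. Both calls were also lost without tumor replicate 3, 5 or 6 or without day 15 replicate 1 or 3, and that of Reg3d without day 15 replicate 2 or 4 (adjusted p up to 0.0805 and 0.105). Reg3g, an antibacterial lectin of the colon epithelium, was high in every tumor instead. It read 226, 170, 11 and 73 at day 15 and 280, 347.5 and 813 in tumors (log2 difference 2.49, SE 0.51, adjusted p = 0.00112), and 2.12 without the Cpa1 arrays (adjusted p = 0.0543).

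**Figure D2:**
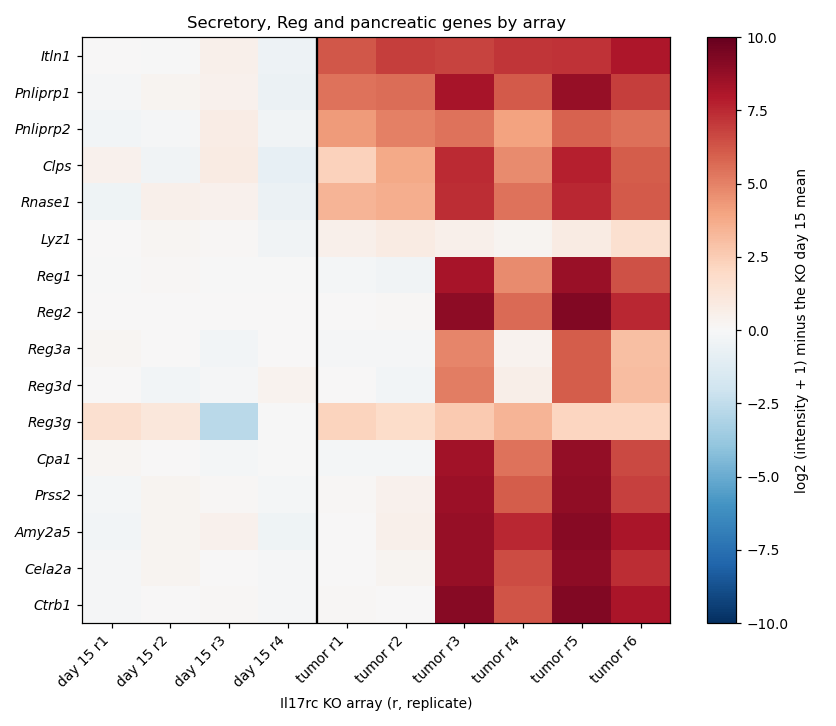
Log2 of intensity plus 1, minus the mean of the 4 KO day 15 arrays, for secretory, Reg and pancreatic genes (rows) in each KO array (columns, replicate number after r). Itln1, Pnliprp1 and Pnliprp2 are raised in all 6 tumors, and Cpa1, Prss2, Amy2a5, Cela2a, Ctrb1, Reg1 and Reg2 only in tumor replicates 3 to 6.

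Other strong rises were found in genes outside the lists. Mt4, a metallothionein, read 33, 15, 17 and 21 at day 15 and 584, 1082.5 and 1906 in tumors (log2 difference 5.71, SE 0.88, adjusted p = 3.9e-05). Prkg2, a cGMP-dependent protein kinase, read 13, 11, 9 and 18 at day 15 and 167, 296.5 and 405 in tumors (log2 difference 4.47, SE 0.36, adjusted p = 2.56e-10). Nfe2l3, a transcription factor of the NRF family, rose by 4.37 (SE 0.47), Bex1, a small signalling adaptor, by 4.44 (SE 0.43), and Nebl, which encodes an actin-binding protein, by 4.88 (SE 0.75). In each of these 5 genes the lowest tumor lay above the highest day 15 array. Cfi, the complement protease that inactivates C3b, read 13, 11, 10 and 12 at day 15 and 125, 167 and 218 in tumors (log2 difference 3.72, SE 0.32, adjusted p = 1.09e-09), the 1 rise among 11 complement genes. Cfb, of the alternative pathway, was the 1 fall (log2 difference -0.80, SE 0.19, adjusted p = 0.00543). It was -0.21 without the arrays with Cpa1 above 100.

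Among 15 claudins and tight junction genes, Cldn4 rose and Cldn8 fell. Cldn4 read 175, 233, 258 and 359 at day 15 and 771, 1035 and 1108 in tumors (log2 difference 2.02, SE 0.29, adjusted p = 1.78e-05). Cldn8, a claudin of the distal colon, read 883, 1019, 1015 and 367 at day 15 and 200, 281.5 and 549 in tumors (log2 difference -1.27, SE 0.32, adjusted p = 0.00636), and its groups overlapped through day 15 replicate 4. Of 14 metalloproteinase and inhibitor genes 2 rose, Mmp7 and Mmp10, and 7 rose without day 15 replicate 4. Mmp10 spread widely at day 15, at 311, 36, 36 and 953, against 480, 1243 and 1954 in tumors (log2 difference 3.02, SE 0.73, adjusted p = 0.00503).

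Of 19 DNA replication genes, 6 rose and 0 fell with a median log2 difference of 0.44, of 19 mitosis genes 1 rose with a median of 0.39, and of 15 ribosome biogenesis genes 7 rose with a median of 0.45. Against the 8.56% of all genes called higher, 1 of 19 mitosis genes lies near the background and is no result about that list. Mcm7, a subunit of the replicative helicase, read 234, 330, 201 and 183 at day 15 and 339, 373 and 514 in tumors (log2 difference 0.81, SE 0.22, adjusted p = 0.0141). Cdk1, the mitotic kinase, read 424, 691, 378 and 362 at day 15 and 546, 686.5 and 1047 in tumors, so day 15 replicate 2 lay within the tumor range (log2 difference 0.72, SE 0.24, adjusted p = 0.0374). Pcna, the polymerase clamp, rose by 0.41 (SE 0.13, adjusted p = 0.0337). Nop2 and Nop56, which modify ribosomal RNA, rose by 0.71 (SE 0.18) and 0.80 (SE 0.21). These calls rested on few arrays. Leaving out 1 array at a time, the replication count ran from 1 (without tumor replicate 2 or day 15 replicate 3) to 9 (without day 15 replicate 2), and it was 0 without tumor arrays 1 and 2. The mitosis count ran from 0 to 4, the latter without day 15 replicate 2. The ribosome count ran from 2 (without tumor replicate 2 or day 15 replicate 3) to 8 (without tumor replicate 1 or day 15 replicate 2). Mcm7 was lost without day 15 replicate 4 (adjusted p = 0.0551). Cdk1 and Pcna were lost without tumor replicate 2 or 6 and without day 15 replicate 1, 3 or 4, and Cdk1 also without tumor replicate 3 or 4 (adjusted p up to 0.116 and 0.104).

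In WT all 19 replication genes and all 19 mitosis genes rose, with medians of 1.35 and 1.29. The replication list summed to 5044 to 7485 in KO day 15 and 6507 to 10433 in KO tumors, and to 2737 to 4737 in WT day 15 and 5814 to 9185 in WT tumors. The tumor ranges thus overlapped across genotypes, while every KO day 15 array lay above every WT day 15 array. None of these genes passed the test of the difference between genotypes. Among 13 p53 targets, Cdkn1a, an inhibitor of cyclin-dependent kinases, fell from 825, 1171, 947 and 492 to 403, 454 and 553 (log2 difference -0.77, SE 0.18, adjusted p = 0.00449). Plk2, a polo-like kinase, rose by 1.07 (SE 0.30, adjusted p = 0.0144) and was lost without day 15 replicate 1 (adjusted p = 0.0748). With 6.05% of all genes called lower and 8.56% called higher, 1 fall and 1 rise of 13 are no result about p53 targets.

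Genes of mature absorptive colonocytes fell. Of 23 measured genes, 11 fell and 2 rose, with a median log2 difference of -0.94. Slc37a2, a sugar phosphate exchanger, read 166, 308, 262 and 81 at day 15 and 10, 21.5 and 46 in tumors (log2 difference -2.86, SE 0.44, adjusted p = 3.4e-05). Slc51b, the beta subunit of the basolateral bile acid exporter, read 391, 549, 286 and 228 at day 15 and 38, 83.5 and 120 in tumors (log2 difference -2.08, SE 0.35, adjusted p = 0.000125). Slc16a1, the butyrate and lactate transporter, read 1806, 1493, 1843 and 1148 at day 15 and 704, 905.5 and 1074 in tumors (log2 difference -0.77, SE 0.16, adjusted p = 0.00118). For these 3 genes no tumor reached the lowest day 15 array. Atp12a, the colonic proton-potassium pump, fell by 2.17 on the log2 scale (SE 0.38) and the membrane mucin Muc3 fell by 1.44 (SE 0.31), with overlap between the groups. The 2 rises, named after their values were seen, were Cyp2c55, a cytochrome P450 of the colon, and Guca2b, uroguanylin. Their log2 differences were 2.55 and 1.09, and both calls were lost without tumor replicate 3, 4 or 6 or day 15 replicate 4, with adjusted p up to 0.131 and 0.162. That of Cyp2c55 was also lost without tumor replicate 5 or day 15 replicate 3, and that of Guca2b without day 15 replicate 1. Without the arrays with Cpa1 above 100, Cyp2c55 and Guca2b differed by 0.47 and 0.58 (limma adjusted p = 0.836 and 0.525). In WT they differed by -0.05 and 1.25. Without day 15 replicate 1 or 3 the list gave 7 falls and 1 rise, and without day 15 replicate 4, the lowest day 15 array for Slc37a2, Slc51b and Slc16a1, it gave 14 falls and 0 rises.

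Other large falls were found in metabolic and transport genes. Upp1, uridine phosphorylase, read 2770, 2952, 2097 and 1218 at day 15 and 147, 226.5 and 999 in tumors (log2 difference -2.89, SE 0.42, adjusted p = 1.73e-05). Slc36a1, a proton-coupled amino acid transporter, read 349, 447, 450 and 155 at day 15 and 39, 54.5 and 126 in tumors (log2 difference -2.37, SE 0.26, adjusted p = 1.49e-07). Thbs4, a thrombospondin of the extracellular matrix, fell by 1.88 on the log2 scale (SE 0.34), and Pkdcc, a secreted protein kinase, also fell by 1.88 (SE 0.35). For all 4 genes the groups did not overlap. Of 17 genes of xenobiotic metabolism, 5 fell and 2 rose, with 3 falls without day 15 replicate 2 or 3, 7 falls without day 15 replicate 4, and 1 rise without day 15 replicate 3 or 4 or without tumor replicate 3, 4, 5 or 6. Cyp3a13 (log2 difference -1.75, SE 0.36), the glutathione transferase Gstm2 (-1.15, SE 0.26) and the efflux pump Abcg2 (-1.30, SE 0.35) fell, whereas Gsta4, which conjugates lipid peroxidation products, read 218, 220, 227 and 186 at day 15 and 470, 761 and 1227 in tumors (log2 difference 1.96, SE 0.46, adjusted p = 0.00444). Of 13 fatty acid oxidation and ketogenesis genes 0 were called, 3 had an unadjusted p below 0.05, and 3 fell without day 15 replicate 4.

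Hormone genes of enteroendocrine cells fell in 7 of 13 members and rose in 1, with a median log2 difference of -0.85. Pyy, peptide YY, read 2170, 2815, 3299 and 1721 at day 15 and 317, 683.5 and 954 in tumors (log2 difference -1.89, SE 0.31, adjusted p = 9.22e-05). Sct, secretin, read 122, 93, 126 and 67 at day 15 and 16, 23.5 and 35 in tumors (log2 difference -1.91, SE 0.28, adjusted p = 1.96e-05). Insl5, a hormone of colonic L cells, read 1190, 1355, 1594 and 875 at day 15 and 22, 257 and 531 in tumors (log2 difference -2.60, SE 0.68, adjusted p = 0.00929), and tumor replicate 2 was the lowest by far. Neurod1, the transcription factor of these cells, fell from 45 to 63 at day 15 to 23 to 29 (log2 difference -0.92, SE 0.19, adjusted p = 0.00126), and Cck, cholecystokinin, from 16 to 33 to 8 to 12 (log2 difference -0.85, SE 0.20, adjusted p = 0.00458). The rise was Nts, neurotensin, at 16, 7, 9 and 17 at day 15 and 16 to 34 in tumors, both near background. Gcg, proglucagon, fell by 1.86 (SE 0.60, adjusted p = 0.0349) but was lost without tumor replicate 1 or 2 or day 15 replicate 1, 3 or 4 (adjusted p up to 0.106).

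The other epithelial lists and the prostaglandin list held few calls. Beside the 8.56% of all genes called higher and 6.05% called lower, counts of 1 or 2 are no result about a list. Of 13 goblet cell genes only Creb3l1, a secretory pathway transcription factor, was called (log2 difference -1.21, SE 0.30, adjusted p = 0.00597). Of 10 tuft cell genes 2 rose. Avil, advillin, an actin-binding protein of tuft cells, read 26, 29, 24 and 27 at day 15 and 105, 196.5 and 234 in tumors (log2 difference 2.84, SE 0.55, adjusted p = 0.000608), and Il17rb, the receptor for IL-25, rose by 0.46 near background. Of 11 small intestinal markers only Fabp6, the ileal bile acid-binding protein, was called. It read 308, 395, 129 and 31 at day 15 and 46 in tumor replicate 1 but 12 to 17 in the other tumors (log2 difference -2.98, SE 0.51, adjusted p = 0.000181). Of 14 prostaglandin genes, Slco2a1, the prostaglandin uptake transporter, fell from 256, 246, 261 and 303 to 65, 122.5 and 181 (log2 difference -1.08, SE 0.24, adjusted p = 0.00297). The degrading enzyme Hpgd fell by 1.01 (SE 0.29, adjusted p = 0.0175), a call lost without day 15 replicate 1, 2 or 3 (adjusted p up to 0.082). The rises were Ptges3 by 0.42 and Ptgds by 0.81, the latter lost without tumor replicate 2, 5 or 6 or any 1 day 15 array (adjusted p up to 0.122). Another Ptges3 probe set, also bright (mean 1272 at day 15 and 1383 in tumors), differed by only 0.19 (limma adjusted p = 0.32).

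The labels give no time of day. Of 16 clock genes 3 fell and 0 rose, beside 6.05% of all genes called lower. Dbp, a transcription factor driven by the clock, read 55, 77, 124 and 53 at day 15 and 13, 16 and 34 in tumors (log2 difference -1.76, SE 0.36, adjusted p = 0.00108). Tef, a relative of Dbp, read 186, 210, 291 and 135 at day 15 and 50, 86.5 and 143 in tumors (log2 difference -1.12, SE 0.25, adjusted p = 0.0025). Per2, a core repressor, fell by 1.15 (SE 0.32, adjusted p = 0.0156) and was lost without day 15 replicate 3 (adjusted p = 0.0682). The Tef promoter at chr15:81802423-81802722 on the plus strand is shown because Tef was the 1 called gene among the 5 clock genes whose window holds the E-box CACGTG, the palindrome bound by the clock activators, in capitals. Of the 16 members 14 had a promoter entry and 5 of these 14 hold these letters in at least 1 window, against 8.09% of all genes with an entry. By window it was 6 of 19, against 7.15% of all windows.
Tef: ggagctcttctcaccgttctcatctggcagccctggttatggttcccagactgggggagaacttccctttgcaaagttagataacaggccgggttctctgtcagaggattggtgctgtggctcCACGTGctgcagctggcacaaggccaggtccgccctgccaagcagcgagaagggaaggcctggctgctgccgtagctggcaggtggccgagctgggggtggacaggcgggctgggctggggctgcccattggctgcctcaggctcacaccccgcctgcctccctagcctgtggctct

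Mast cell genes rose in the tumors. Of 12 measured genes 6 rose and 1 fell, with a median log2 difference of 0.76. Mcpt2, a protease of mucosal mast cells, read 62, 44, 57 and 100 at day 15 and 144, 766.5 and 1096 in tumors (log2 difference 3.25, SE 0.36, adjusted p = 2.29e-07). Mcpt1, its neighbour in the same family, read 26, 16, 31 and 52 at day 15 and 31, 327 and 502 in tumors (log2 difference 2.88, SE 0.47, adjusted p = 8.35e-05). Cpa3, mast cell carboxypeptidase, rose by 2.42 (SE 0.41), Fcer1a, the IgE receptor alpha chain, by 2.17 (SE 0.41) and Ms4a2, its beta chain, by 0.88 (SE 0.21). Tumor replicate 2 was the lowest tumor for Mcpt1, Mcpt2, Cpa3 and Fcer1a, and the list sum there (425) lay within the day 15 range of 394 to 1370. In tumor replicates 1 and 2 alone 1 of 12 members was called, Mcpt2 at a log2 difference of 1.86. The fall, named after its values were seen, was Hdc, histidine decarboxylase. It read 68, 101, 68 and 1029 at day 15 and 21 to 95 in tumors, and its log2 difference of -1.81 became -0.87 without day 15 replicate 4 (adjusted p = 0.322). It was also lost without tumor replicate 1, 2, 4, 5 or 6.

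Several chemokine genes fell. Of 17 CC chemokines 5 fell and 0 rose, and without tumor replicate 2 or day 15 replicate 1 the falls were 2. Ccl4, a chemokine for monocytes and T cells, read 112, 165, 103 and 2017 at day 15 and 13, 20 and 73 in tumors (log2 difference -3.29, SE 0.63, adjusted p = 0.000561). Ccl3, its close relative, read 98, 119, 73 and 2027 at day 15 and 17, 25.5 and 70 in tumors (log2 difference -2.72, SE 0.62, adjusted p = 0.00304). Acod1, the macrophage enzyme that makes itaconate, read 410, 777, 581 and 4256 at day 15 and 36, 89.5 and 354 in tumors (log2 difference -3.35, SE 0.72, adjusted p = 0.00184). Ccrl2, a chemerin-binding receptor, read 47, 107, 83 and 522 at day 15 and 17, 27 and 36 in tumors (log2 difference -2.06, SE 0.37, adjusted p = 0.000298). For these 4 genes every tumor lay below every day 15 array, and day 15 replicate 4 was by far the highest. All 4 calls remained without that array, with log2 differences of -2.28, -1.61, -2.64 and -1.35. In untreated KO colon, Ccl4 averaged 14 and Acod1 17.75. The remaining chemokine falls, Ccl5, Ccl7 and Ccl28, had differences of -1.57, -1.18 and -1.27. Each of these 3 lost its call without tumor replicate 2 or day 15 replicate 1. Ccl5 also lost it without tumor replicate 3 or day 15 replicate 4, Ccl7 without tumor replicate 3, 5 or 6 or day 15 replicate 2 or 4, and Ccl28 without tumor replicate 6 or day 15 replicate 2 or 3 (adjusted p up to 0.0857, 0.161 and 0.126).

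Of 12 IL-1 family genes 5 fell and 0 rose, with a median log2 difference of -0.83, and 3 fell without tumor replicate 6 or day 15 replicate 4. Il1a, interleukin-1 alpha, read 29, 41, 26 and 299 at day 15 and 13 to 17 in tumors (log2 difference -1.75, SE 0.41, adjusted p = 0.00377), and -0.93 without day 15 replicate 4 (adjusted p = 0.0196). Il18bp, a decoy for IL-18, read 186, 134, 140 and 109 at day 15, 198 in tumor replicate 1 and 31 to 44 in the other tumors (log2 difference -1.32, SE 0.34, adjusted p = 0.00781). Without day 15 replicate 4 the antagonist Il1rn moved from -0.94 to -0.41 and the inflammasome sensor Nlrp3 from -0.95 to -0.44, and both lost their call (adjusted p = 0.22 and 0.108). Il1rn was also lost without tumor replicate 6. Casp1, which cleaves IL-1 beta, fell by 0.72 and was lost without tumor replicate 2 or 6 or day 15 replicate 1, 2 or 3 (adjusted p up to 0.094).

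Markers of neutrophils and macrophages gave few falls, and these rested on single day 15 arrays. Of 15 neutrophil genes 2 fell. Beside the 6.05% of all genes called lower, that count is no result about the list. Clec4e, a myeloid lectin receptor, read 115, 156, 129 and 1574 at day 15 and 23, 41.5 and 109 in tumors (log2 difference -2.37, SE 0.63, adjusted p = 0.011). Csf3r, the G-CSF receptor, read 33, 44, 54 and 352 at day 15 and 21, 23 and 33 in tumors (log2 difference -1.44, SE 0.40, adjusted p = 0.0152). Without day 15 replicate 4 both calls were lost, at -1.48 and -0.67 (adjusted p = 0.0878 and 0.126), as was that of Plek, a leukocyte signalling protein (-1.79 to -1.09, adjusted p = 0.142). Plek was also lost without tumor replicate 2. Of 16 monocyte and macrophage genes 0 rose and 1 fell, near that share, and the fall was lost without day 15 replicate 4. Lyz2, macrophage lysozyme, lay higher in every tumor (3702 to 4899) than at day 15 (1755 to 3565) but did not pass (adjusted p = 0.0636).

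Of 13 B cell genes 6 fell and 0 rose, with a median log2 difference of -1.25. Cd22, a B cell lectin, read 198, 32, 99 and 238 at day 15 and 14, 39 and 65 in tumors (log2 difference -1.55, SE 0.45, adjusted p = 0.0191). Cxcr5, the follicle homing receptor, read 134, 12, 38 and 148 at day 15 and 12, 18 and 38 in tumors (log2 difference -1.45, SE 0.41, adjusted p = 0.0174), and Fcrla fell by 1.31 (SE 0.36). Cd79a, of the B cell receptor, fell by 0.68 (SE 0.20). Day 15 replicates 1 and 4 carried most of the signal, with B cell sums of 4516 and 8970 against 742 and 2608 in the other 2. Without either of them 0 of 13 were called, and without day 15 replicate 2, the lowest, 9 were while Cd22 and Cd79a were also lost without tumor replicate 2 (adjusted p up to 0.0975, 0.125, 0.0966 and 0.14 for Cd22, Cxcr5, Fcrla and Cd79a). Of 8 plasma cell genes 1 fell, the transcription factor Irf4 (log2 difference -0.99), which was lost without day 15 replicate 1 or 4 or tumor replicate 2, 3 or 6 (adjusted p up to 0.204). Of 16 T cell and cytotoxic genes 0 were called, 3 had an unadjusted p below 0.05, and 3 fell without day 15 replicate 2.

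Interferon-induced genes separated tumor replicate 1 from the other 5 tumors. Of 23 interferon-gamma and antigen presentation genes 8 fell and 0 rose, with a median log2 difference of -1.04, and of 15 type I interferon-stimulated genes 6 fell and 0 rose, with a median of -1.02. Gbp2, an interferon-induced GTPase, read 1336, 1032, 1174 and 969 at day 15, 1545 in tumor replicate 1 and 161 to 400 in the other tumors (log2 difference -1.74, SE 0.49, adjusted p = 0.0158). Nlrc5, the activator of MHC class I genes, read 152, 84, 72 and 97 at day 15, 147 in tumor replicate 1 and 12 to 44 in the others (log2 difference -1.50, SE 0.44, adjusted p = 0.0208). Oasl2, an antiviral sensor-like protein, read 317, 290, 271 and 158 at day 15, 284 in tumor replicate 1 and 14 to 88 in the others (log2 difference -1.92, SE 0.54, adjusted p = 0.0166). Tumor replicate 1 was the highest tumor in all 3 genes. Ciita, the activator of MHC class II genes, read 65, 19, 27 and 49 at day 15 and 10, 14.5 and 34 in tumors (log2 difference -1.04, SE 0.26, adjusted p = 0.00708), and the RNA sensor Ifih1 read 510, 613, 569 and 414 at day 15 and 132, 280 and 454 in tumors (log2 difference -0.87, SE 0.23, adjusted p = 0.0102). Further falls were Ifit2 (-1.66), Cmpk2 (-1.10) and H2-DMb1 (-1.24). A dimmer Cmpk2 probe set gave -0.01 (limma adjusted p = 0.966).

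Without tumor replicate 1, 17 of 23 and 13 of 15 genes fell. Without day 15 replicate 1, 0 of 23 and 2 of 15 fell, without tumor replicate 6 the type I count was 1, and without the arrays with Cpa1 above 100, which leaves tumor replicates 1 and 2, 0 and 0. The calls of Gbp2, Nlrc5, Ciita and Oasl2 were lost without day 15 replicate 1 (adjusted p = 0.0537, 0.0938, 0.0628 and 0.0589), and those of Ifit2, Cmpk2 and H2-DMb1 without day 15 replicate 1 or tumor replicate 3 or 6 (adjusted p up to 0.106, 0.0971 and 0.141). Ifit2 was also lost without tumor replicate 2 or day 15 replicate 4, Cmpk2 without tumor replicate 5 or day 15 replicate 2, and H2-DMb1 without tumor replicate 2 or day 15 replicate 2. Nlrc5 and Oasl2 were also lost without tumor replicate 6. The interferon-gamma list summed to 14610 to 22444 at day 15, to 27171 in tumor replicate 1 and to 4688 to 12385 in the other tumors, and to 32805 to 37115 in untreated KO colon.

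**Figure D3:**
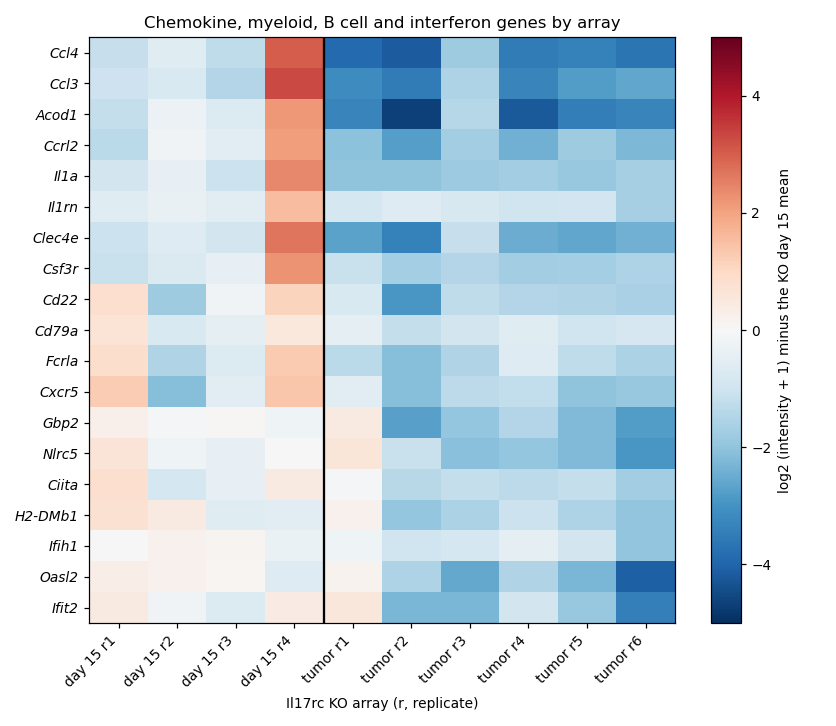
Log2 of intensity plus 1, minus the mean of the 4 KO day 15 arrays, for chemokine, myeloid, B cell and interferon genes (rows) in each KO array (columns, replicate number after r). Day 15 replicate 4 is highest for Ccl4, Ccl3 and Acod1, and tumor replicate 1 has Gbp2 and Ifit2 at 1545 and 1047, level with or above day 15, while the other tumors lie below it.

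Genes of IL-17 signalling were read without their receptor subunit. Of 15 measured members 3 rose and 1 fell, beside 8.56% of all genes called higher and 6.05% called lower. Il23a, a subunit of the cytokine IL-23 that maintains IL-17-producing cells, read 9, 8, 9 and 11 at day 15 and 15, 17 and 24 in tumors, a small step near background (log2 difference 0.94, SE 0.18, adjusted p = 0.000608). Il17rd, an orphan member of the receptor family, read 32, 19, 28 and 37 at day 15 and 41, 59 and 94 in tumors (log2 difference 1.16, SE 0.26, adjusted p = 0.00302), and Il17rb was the remaining rise. In Il23a and Il17rd every tumor lay above every day 15 array. Il17ra, the partner of Il17rc, read 135, 78, 106 and 363 at day 15 and 62, 83 and 114 in tumors (log2 difference -0.76, adjusted p = 0.0272), and its call was lost without day 15 replicate 4 (-0.31, adjusted p = 0.247) and without tumor replicate 2 or 4. A dimmer Il17ra probe set gave -0.38 and was not called (limma adjusted p = 0.109). Traf3ip2, which encodes Act1, did not pass (170, 156, 160 and 140 against 107 to 150, adjusted p = 0.208). Il17a, which encodes IL-17A, lay near background (mean 14.25 at day 15 and 12.5 in tumors) and did not pass (log2 difference -0.09). Il17re, the receptor for IL-17C, did not pass in KO (log2 difference -0.07, adjusted p = 0.856) and fell in WT (-0.96, adjusted p = 0.00108), with an unadjusted p of 0.00521 for the difference between genotypes, which did not survive adjustment.

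Of 27 genes induced by IL-17 in other settings, 4 fell and 1 rose, beside 6.05% of all genes called lower and 8.56% called higher. The 1 rise is no result about the list. The acute-phase proteins Saa1 and Saa2 read 3036 to 5274 and 3643 to 6028 at day 15 and 1248 to 2884 and 1008 to 3478 in tumors, with no overlap (log2 differences -0.80 and -1.01, adjusted p = 0.019 and 0.0096). Saa1 lost its call without tumor replicate 2 or day 15 replicate 1 or 3 (adjusted p up to 0.0803), and the 2 genes are near-identical copies that probes may not separate. Tnfaip3, the inhibitor A20, fell by 0.92 (SE 0.25), a call lost without day 15 replicate 4 (-0.53, adjusted p = 0.108). The other fall was Ccl7 and the rise was Reg3g. Without day 15 replicate 4 the list gave 3 rises and 3 falls. Of 13 IL-6 family and STAT3 genes 1 fell, the kinase Pim1 (log2 difference -0.84, adjusted p = 0.0486), which was -0.35 without day 15 replicate 4 (adjusted p = 0.375) and was lost without any 1 tumor array other than replicate 5 or without day 15 replicate 2.

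Stroma, vessels, muscle and nerve gave 0 calls among 19 collagen and matrix genes, 12 endothelial markers, 13 smooth muscle genes and 13 enteric neuron and glia genes. At an unadjusted p below 0.05 there were 2, 0, 6 and 2. Their medians were -0.24, 0.14, -0.58 and -0.37. Without tumor replicate 1, the tumor with the highest smooth muscle sum, 5 of 13 smooth muscle genes fell. Myh11, smooth muscle myosin, read 1121, 859, 967 and 1642 at day 15 and 117, 501 and 1667 in tumors (log2 difference -1.15, adjusted p = 0.0657). The neuropeptide Vip read 546, 414, 589 and 1475 at day 15 and 25, 493 and 593 in tumors (adjusted p = 0.247), and the matrix protein Postn read 2993, 1477, 2150 and 4789 at day 15 and 367, 1593.5 and 2039 in tumors (adjusted p = 0.0857). The lowest tumor for all 3 was replicate 2. Squamous markers were called in 0 of 13 with a median of 0.96, and Krt14 read 453 and 1534 in tumor replicates 1 and 2 and 26 to 156 in the others. Of 12 skeletal muscle and 7 adipocyte markers 0 were called, and 1 and 0 had an unadjusted p below 0.05, as did 0 of the squamous markers.

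**Figure D4:**
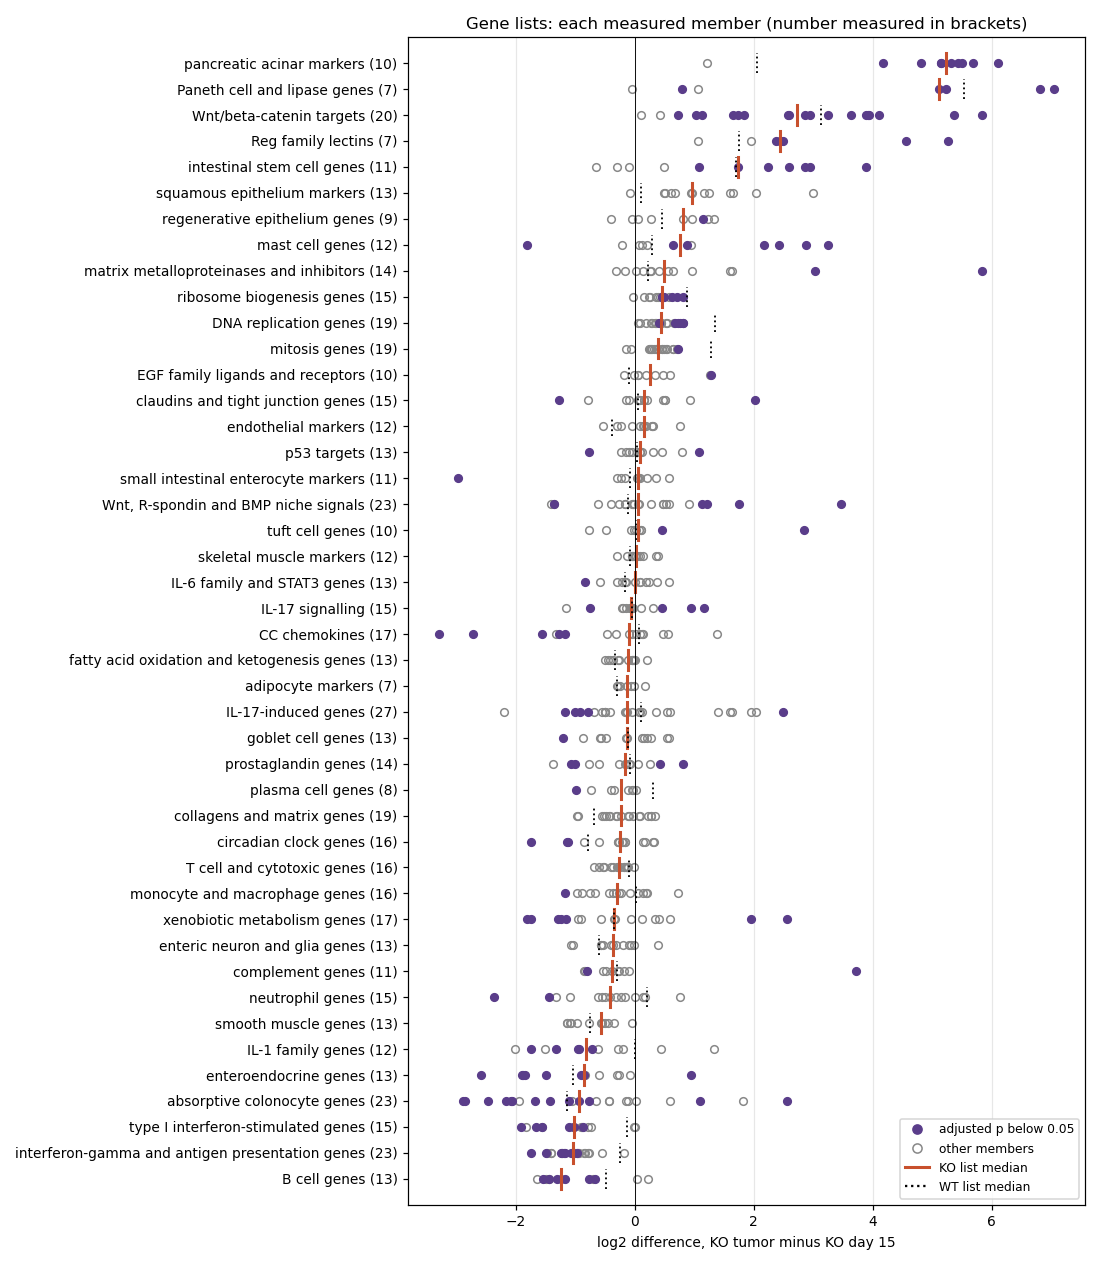
Log2 difference, KO tumor minus KO day 15, of every measured member of 44 gene lists (rows, number measured in brackets), filled where the limma adjusted p was below 0.05, with the KO list median as a red bar and the WT list median as a dotted bar. Wnt targets lie to the right with medians of 2.73 in KO and 3.13 in WT, and interferon-gamma genes lie at a median of -1.04 in KO and -0.24 in WT.

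The change from day 15 to tumor was set beside the same change in WT, on arrays that the KO comparison does not use. In WT 3414 of 17097 genes (20%) were called, 2088 higher (12.2%) and 1326 lower (7.76%), and the WT groups did not overlap for 7.83% of genes in the higher and 3.5% in the lower direction. Of the 1463 KO rises, 1025 were also called higher in WT, which is 70.1% of the KO rises and 49.1% of the WT rises. Of the 1034 KO falls, 588 were also called lower in WT, or 56.9% of the KO falls and 44.3% of the WT falls. The WT difference had the KO sign for 98.2% of the KO rises and 94.3% of the KO falls, beside 50.9% of all genes higher and 49.1% lower in WT, and 0 genes were called in opposite directions. Across all genes, which are not independent replicates, the 2 sets of differences had a Pearson correlation of 0.812.

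In WT 18 of 20 rose with a median of 3.13, and Wif1, Notum, Mmp7 and Itln1 differed by 5.27, 4.26, 5.50 and 7.21 in WT against 5.36, 4.10, 5.83 and 7.06 in KO. Mast cell genes rose in 5 of 12, absorptive colonocyte genes fell in 14 of 23 and enteroendocrine genes fell in 7 of 13 in WT. The lists of interferon-gamma, B cell and CC chemokine genes had 0 of 23, 0 of 13 and 1 of 17 falls in WT, against 8, 6 and 5 in KO. Without KO day 15 replicate 1 the KO falls were 0, 0 and 2, and the lists' difference between genotypes was not tested. The test of the difference between genotypes called 0 of 17097 genes (0%) with limma. An unadjusted p below 0.05 was found for 926, near the 5% of genes expected where none differs. Without tumor arrays 1 and 2 the test called 2, without KO tumor replicate 1 it called 1 and without the arrays with Cpa1 above 100 it called 5.

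The smallest unadjusted p for the genotype difference belonged to genes that did not pass adjustment. Ccl4 changed by -3.29 in KO and 0.57 in WT (difference -3.87, SE 0.89, adjusted p = 0.641), with a mean of 599.2 ± 946 (SD, n = 4) at KO day 15 and 34.5 ± 35.7 (n = 4) at WT day 15. Sass6, a centriole assembly protein, changed by -0.05 in KO and 0.92 in WT (adjusted p = 0.641), and the tetraspanin Cd151 by 0.49 and 0.07 (adjusted p = 0.717). Nepn, Klhl14 and 1700128E19Rik lay at background in all 4 groups. The macrophage gene Acod1 changed by -3.35 in KO and 0.43 in WT, with an unadjusted p of 0.000758 for the difference, and Ccl3 by -2.72 and 0.28.

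**Figure D5:**
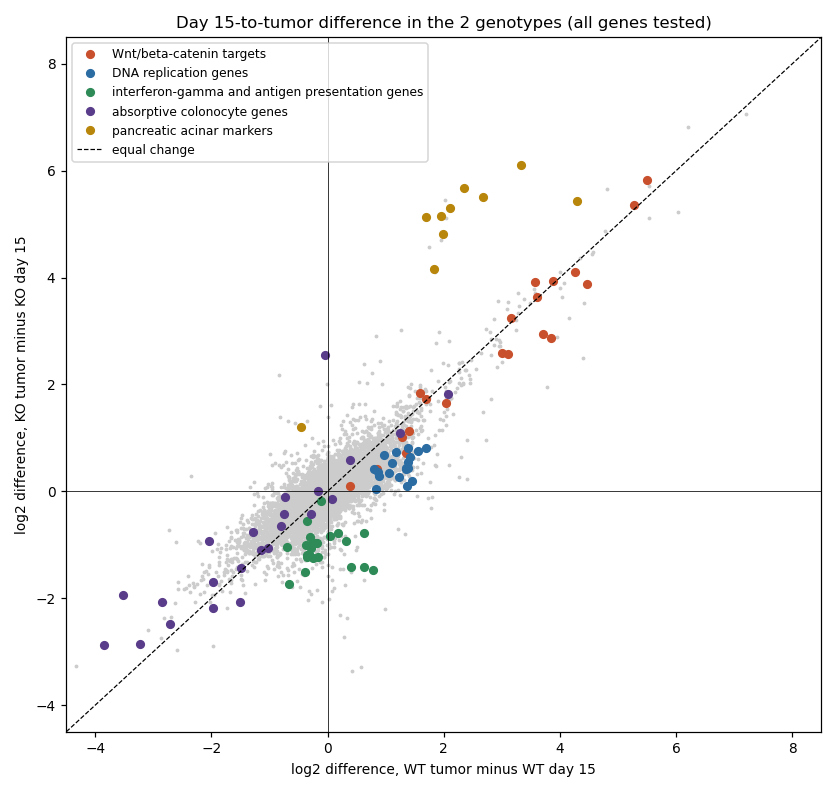
Log2 difference from day 15 to tumor in WT (horizontal axis) and KO (vertical axis) for 17097 genes, with 5 gene lists in colour and a dashed line of equal change. Wnt targets lie along the line, DNA replication genes lie below it with medians of 0.44 in KO and 1.35 in WT, and pancreatic acinar markers lie above it with medians of 5.23 and 2.05.

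Against untreated KO colon, 3545 genes (20.7%) differed in KO tumors, 10.8% higher and 9.91% lower, and 138 (0.807%) in KO day 15 colon, 0.485% higher and 0.322% lower, comparisons that share the untreated arrays. Most genes in the day 15 colon were thus not called against the untreated colon, and Acod1 and Ccl4 were called there, higher by 5.60 and 3.98 (adjusted p = 0.000259 and 0.00238). In KO tumors Acod1 lay 2.25 above untreated (adjusted p = 0.0228) and Ccl4 0.69 (adjusted p = 0.524).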

How the data were processed

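Total RNA of minced colon or tumor tissue was extracted with TRIzol, labelled and read on Affymetrix HT MG-430 PM arrays, per the labels' protocols. The authors deposited 1 intensity per probe set and array on a linear scale, in whole numbers from 4 to 14185, and background correction and summarization before deposit were not given in the sources used here. Array medians of the intensity were 14 to 16, and 36% of genes had a mean below 16, where small differences are compressed. An array has no read depth, so the number of arrays limits the precision.

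From the deposited intensity, log2(intensity + 1) was quantile normalized over 45037 probe sets. Probe sets with 1 symbol (28898, against 551 with several and 15588 with none) were kept, symbols were updated by gene ID through RefSeq (28689 matched), and the brightest probe set on average (36 arrays) stood for each of 17097 genes. limma 3.58.1 in R 4.3.3 fitted 8 group means over all 36 arrays with an intensity trend in the variance prior, and p-values were Benjamini-Hochberg adjusted over all genes, at a threshold of 0.05. The fit was run on simulated data with independent noise in each gene. That simulation held no array differences shared by many genes, so it does not cover those seen here. Of 674 distinct genes in 44 lists, 600 were measured. The groups, lists and tests were chosen with earlier results of these data known. Candidates for naming came by rule: the 15 largest rises and falls without overlap between groups in the normalized values (Reg2 and 2210010C04Rik tie across groups in the deposited ones), up to 5 members per list by smallest p, the IL-17 signalling members, defining markers of other tissues, and for the genotype difference the 3 of each sign with the smallest p. Some candidates are not described above, among them uncalled ones such as Traf6, Dclk1 and Ptgs2. The genes named thus do not represent their lists evenly. Lef1, Cd44, Cyp2c55, Guca2b, Hdc, Epcam and Cdx2 were chosen after their values were seen. Alternatives varied the pseudocount, scaling, probe set rule, variance model, blocks and arrays left out. The arrays that carry pancreatic transcripts were left out as an alternative chosen after seeing the data. The labels do not say that replicate numbers pair the groups. After subtracting group means, same-numbered KO arrays 1 to 4 correlated at 0.187, 0.389, -0.144 and -0.083. Tumor replicates 1 and 2 correlated best with the day 15 array of their own number, and replicates 3 and 4 with another. These few arrays cannot settle whether the groups are paired, so the replicate block was an alternative.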

Additional observations from a re-analysis of the deposited data

Results flagged for a closer look

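For 143 genes the most extreme array of each KO group was compared with the rest of its group. The gap to the nearest array, as a share of the group's whole range, passed Dixon's 95% limit in 30 of 286 groups. The 5% that chance gives for independent groups is no reference here, since the genes were chosen from these data and share arrays. Of the 30, 16 were in the day 15 group and 14 in the tumors. Day 15 replicate 4 accounted for 12. It was the high array, with the gap share in brackets, for Reg2 (1), Ccl4 (0.842), Ccl3 (0.85), Plek (0.881), Il1rn (0.878), Clec4e (0.857), Krt14 (0.884) and Nepn (1). It was the low array for Pkdcc (0.858), Cyp3a13 (0.883), Cldn8 (0.837) and Hpgd (0.832). For Reg2 and Nepn the deposited values tie at 8 and 7 in all 4 arrays, so that the gap there arises in the normalized values alone.

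The other day 15 arrays that stood apart were replicate 3 for Defa21 (high, 0.878), replicate 1 for 2210010C04Rik (low, 0.906), replicate 2 for Nop2 (high, 0.875), replicate 2 for Reg1 (high, 0.973). All of these except Nop2 lie near background.

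Among tumors, replicate 2 stood apart for Insl5 (low, 0.63), Plek (low, 0.745), Krt7 (high, 0.631), Ptges3 (high, 0.649), Cd22 (low, 0.69), Vip (low, 0.834), Postn (low, 0.801). The remaining tumor arrays were replicate 3 for Ccl4 (high, 0.671), replicate 1 for Fabp6 (high, 0.694), replicate 6 for Ptgds (high, 0.632), replicate 4 for Per2 (low, 0.681), replicate 6 for Il1rn (low, 0.634), replicate 1 for Il18bp (high, 0.795), replicate 3 for Klhl14 (low, 0.953). Tumor replicate 1 read 198 for Il18bp and 46 for Fabp6, against at most 44 and 17 in the other tumors.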

How the results depend on the processing

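The count of 2497 genes in the KO comparison was within 1.5 times of itself under most alternatives and moved under 4. It was 1205 with only the groups compared in the fit (69.1% of them higher), 1099 with a block for the letter in the titles' sample code, 1082 without the arrays with Cpa1 above 100, and 1448 (without day 15 replicate 1) to 2792 (without tumor replicate 1) with 1 array left out. With the replicate block it was 2340, with 83.5% of the 2497 genes called again. The share of higher genes was 58.6%, 44.1% without normalization and 50.8% without day 15 replicate 4. The test between genotypes called 2 genes without KO tumor arrays 1 and 2, 5 without the arrays with Cpa1 above 100 and 0 to 1 with 1 array left out. Among values for single genes under the alternatives, 3463 kept their direction and side of the threshold, 362 lost the call, 10 gained it and 18 changed sign.

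Values that changed sign were small outside the Reg and pancreatic genes. Without the arrays with Cpa1 above 100 they were -0.262 for Reg1, -0.06732 for Reg3a, -0.1089 for Reg3d, -0.1953 for Cpa1, 0.04172 for Cmpk2, 0.02053 for Il17re and 0.1561 for Sass6. Sass6 was 0.07557 with the mean of all probe sets and 0.06253 with the replicate block, and without tumor arrays 1 and 2 Lef1 was -0.06281 and 1700128E19Rik -0.02055. With 1 array left out, Lef1 ran from -0.02813 to 0.1683, Il17re from -0.2885 to 0.02377, Sass6 from -0.1706 to 0.04465, Klhl14 from -0.1391 to 0.03373 and 1700128E19Rik from -0.04885 to 0.1247. Apart from leaving arrays out, which removes samples, the cause was not tested. Signals near background limit what can be read, since 35 of the 143 genes followed through these alternatives had a group mean below 16.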
